A study of Homo sapiens with 6 samples.

Results

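The 10 genes described here encode the inhibitors of cyclin-dependent kinases (CDKs) CDKN1B, CDKN1C, CDKN2A, CDKN2B, CDKN2C and CDKN2D, the D-type cyclins CCND1, CCND2 and CCND3, and CDK6, a kinase that D-type cyclins activate. They were taken by gene name from a table of 58735 genes, and all 10 were found. The table holds messenger RNA levels of AZ-521 cells, which the labels give as a wild-type gastric cancer line from stomach, though the holdings of cell repositories place its origin in a duodenal carcinoma. Cells had received 10 µM platycodon D (PD), a saponin of balloon flower root, or the solvent DMSO, each for 48 h, with 3 samples in each group. The labels do not say whether samples of a group came from separate cultures, so the p-values measure how these samples vary, and that variation may be technical.

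D-type cyclins bind CDK4 or CDK6, and the active kinase phosphorylates the retinoblastoma protein RB, which then releases E2F transcription factors and lets a cell pass from G1 into DNA synthesis. The INK4 inhibitors, CDKN2A to CDKN2D, bind CDK4 and CDK6 themselves and keep D-type cyclins from them. The CIP/KIP inhibitors, CDKN1A, CDKN1B and CDKN1C, bind cyclin and kinase together and block cyclin E and cyclin A complexes above all, while they can also help cyclin D and its kinase to assemble.

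Depth differed little between samples, with 14915538 to 16341687 reads over genes. The library size behind the deposited values, divided by those reads, was 1.03, 1.10 and 1.08 in DMSO and 1.00, 0.997 and 0.947 in PD. The deposited scaling thus set PD values higher against DMSO than scaling to reads over genes would. Deviations of DMSO replicate 1 and PD replicate 3 from their group means fell with the GC content of transcripts (Spearman rho across genes = -0.64 and -0.52, against 0.02 to 0.61 for the other samples). The epithelial markers EPCAM, CDH1 and KRT8 stayed at or under 0.428 FPKM (fragments per kilobase of gene length and library size) in every sample and KRT18 and KRT19 were listed at 0, so the label of an epithelial stomach line had no support from these 5 genes. The 6 gastric markers summed to at most 0.788 FPKM. Of 6 intestinal markers CDX2 alone was abundant enough to test, at 1.27 and 1.18 FPKM in DMSO and PD. Of 5 fibroblast markers, COL3A1 stood at 42.9 and 40.6 FPKM in DMSO and PD and LUM at 13.6 and 9.62 FPKM, while COL1A1, DCN and PDGFRB stayed at or under 0.782 FPKM in every sample. The summed level of those 5 ran from 54.1 to 64.8 FPKM in DMSO and from 50.5 to 51.8 FPKM in PD, and its part in the results below was not tested. The summed blood markers reached at most 0.397 FPKM and the endothelial ones at most 0.0686 FPKM.

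The INK4 family held members that moved in opposite directions, and the promoter sequences of those that moved are shown for that reason. The RefSeq (GRCh38.p14) promoters at hand covered 7 of the 10 genes, at 13 transcription starts. CCND1, CCND2 and CDKN1C were not covered, so the counts of letters below do not apply to them. For each start the 250 bases before it are printed 5′ to 3′ on the gene's own strand. Capitals mark E2F-type letters (TTCCCGCC, TTTCCCGC or TTTGGCGC), the CCAAT box, the TATA box letters TATAAA, the E box letters CACGTG, the cyclic AMP element core TGACGT, the AP-1 letters TGANTCA and the GC box letters GGGCGG, each on either strand.
CDKN2B, chr9:22009306-22009555, minus strand: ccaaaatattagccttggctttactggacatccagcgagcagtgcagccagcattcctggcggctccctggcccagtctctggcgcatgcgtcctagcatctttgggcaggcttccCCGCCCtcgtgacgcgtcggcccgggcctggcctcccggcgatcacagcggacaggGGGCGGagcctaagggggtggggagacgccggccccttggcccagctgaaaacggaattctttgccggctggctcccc
CDKN2C, chr1:50968456-50968705, plus strand: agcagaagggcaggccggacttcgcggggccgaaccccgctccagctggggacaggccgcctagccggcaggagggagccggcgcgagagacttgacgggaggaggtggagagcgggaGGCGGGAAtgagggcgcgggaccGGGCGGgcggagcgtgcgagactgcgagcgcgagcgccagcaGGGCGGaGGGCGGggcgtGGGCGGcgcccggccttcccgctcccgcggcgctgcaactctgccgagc
CDKN2D, chr19:10568980-10569229, minus strand: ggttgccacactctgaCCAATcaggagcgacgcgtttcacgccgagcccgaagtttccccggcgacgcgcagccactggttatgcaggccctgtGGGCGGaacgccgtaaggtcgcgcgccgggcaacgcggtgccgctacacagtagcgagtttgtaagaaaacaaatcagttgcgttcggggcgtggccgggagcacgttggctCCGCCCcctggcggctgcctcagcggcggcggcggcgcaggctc

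CDKN2C has 3 starts in that table, and the one shown was the only one of the 13 with E2F-type letters, which begin at position -132 from the start. Such letters occur in 3.94% of 35116 promoter windows of that length. The CDKN2D window holds 1 CCAAT box, found in 32.0% of all windows, and 2 GC boxes, found in 42.6%. The CDKN2B window holds 2 GC boxes and none of the other letters marked. The TATA box and AP-1 letters, in 10.7% and 6.57% of all windows, were in 0 of the 13, as were the full cyclic AMP element TGACGTCA (1.65%) and the forkhead letters TGTTTAC (2.98%). The E box (6.345% of all windows) and TGACGT (7.10%) were in 2 and 3 of the 13, none of them printed here. The other CDKN2C windows, at starts 50960745 and 50970245, each held 1 E box and 1 TGACGT, and a CDK6 window held 1 TGACGT. Matches of different motifs that overlap were counted each. These matches describe letters in the windows and are not evidence of binding.

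After PD, 2 of the 10 genes rose (CCND2 and CDKN2D) and 3 fell (CDKN2B, CDKN2C and CDK6) at a Benjamini-Hochberg adjusted p under 0.05 in limma over 13579 genes. All 10 passed the filter on low values. Over all genes tested 27.1% passed in either direction, 14.3% higher and 12.7% lower. With a change of at least 2-fold on the log2(FPKM + 1) scale required as well, 1 of the 10 was called, CCND2. Of all genes 3.82% were then called and 2.84% were called higher. CDKN2D, whose mean FPKM differed 2.07-fold, stood at 0.89 on that scale, under the cut. With every sample scaled to the same total, which moved the median of all genes by -0.10, 1407 genes were higher and 2812 lower, in place of 1947 and 1731, and 6 of the 10 passed. The 3 PD samples lay wholly above or below the 3 DMSO samples for 6 of the 10, 3 above and 3 below, beside 44.4% of all genes, 22.5% above and 21.9% below. The median log2 fold change was -0.10 for the 10 and 0.0010 for all genes tested, and the median absolute change 0.38 and 0.25. Fewer cells with a transcript and less of it per cell cannot be told apart in bulk RNA.

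**Figure D1:**
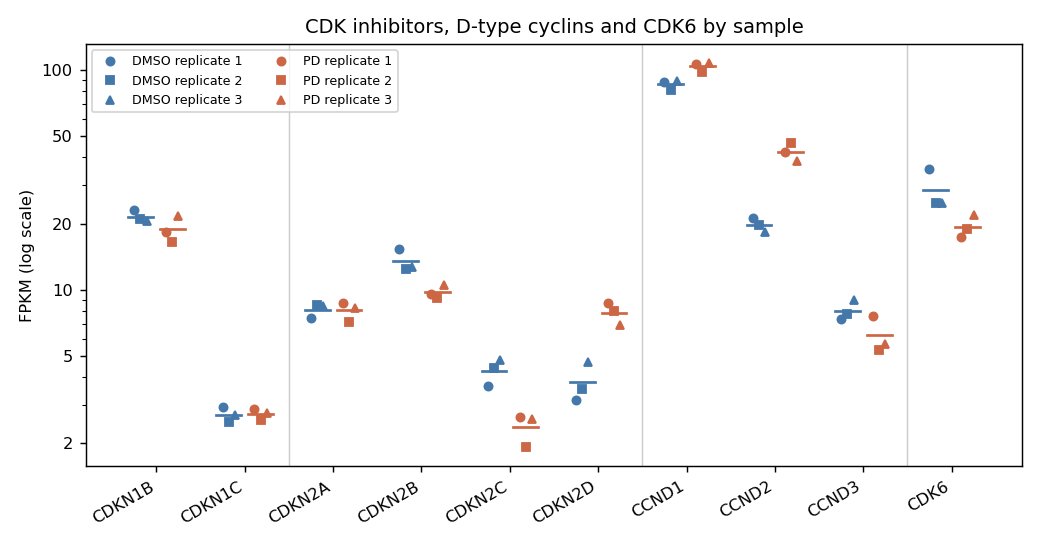
Level of each of the 10 genes in every sample, in FPKM on a log axis, with DMSO in blue, PD in orange, replicate numbers by symbol and short lines at the group means of 3 samples. CCND1, CCND2 and CDKN2D stood higher in all 3 PD samples, and CDKN2B, CDKN2C and CDK6 lower. CCND1, which did not pass the test, was the most abundant in both groups.

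In the DMSO samples CCND1 was the most abundant of the 10 per gene length, at 86.1 ± 4.37 FPKM (SD, n = 3). CDK6 followed at 28.4 ± 6.14 FPKM, then CDKN1B at 21.5 ± 1.33, CCND2 at 19.8 ± 1.49 and CDKN2B at 13.5 ± 1.57 FPKM. CDKN2A and CCND3 stood at 8.13 and 8.05 FPKM, CDKN2C and CDKN2D at 4.29 and 3.80 FPKM, and CDKN1C lowest at 2.71 FPKM. In that order the sample ranges of neighbours overlapped for CDKN1B with CCND2, CDKN2A with CCND3 and CDKN2C with CDKN2D. In PD, CCND2 stood second, above CDK6, and CDKN2C last. The ranges of CDK6 and CDKN1B, of CDKN2A and CDKN2D, of CDKN2D and CCND3, and of CDKN1C and CDKN2C then overlapped. Each value rested on 73 to 7864 reads, which gives a 95% Poisson interval of between ±2.22% and ±23.7% for counting error alone.

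Of the 3 D-type cyclins CCND2 rose, and the other two did not pass the test. CCND2 (ENSG00000118971, chromosome 12, 4273772 to 4305350 on GRCh38) encodes cyclin D2, which many tissues express after mitogen or hormone signals. Its level was 21.3, 19.8 and 18.3 FPKM in DMSO replicates 1 to 3 and 42.6, 46.5 and 38.4 FPKM in PD replicates 1 to 3. The lowest PD sample stood well above the highest DMSO sample. The means differed 2.15-fold, with a log2 fold change of 1.06 ± 0.10 (SE; 95% interval 0.82 to 1.30; adjusted p = 0.000771 in limma). It passed the test in all 18 refits, with values from 0.94 to 1.18. Its antisense neighbour CCND2-AS1, which overlaps it by 2413 bases, stood at 0.577 and 0.895 FPKM, under the filter. How counting treated the strand was not given in the sources used here.

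CCND1 (ENSG00000110092, chromosome 11, 69641087 to 69654474) encodes cyclin D1, the D-type cyclin most often amplified in carcinomas. Its FPKM was 87.8, 81.2 and 89.5 in DMSO and 106, 98.4 and 107 in PD. All PD samples were above all DMSO samples, yet the test was not passed in limma (log2 fold change 0.27 ± 0.09, 95% interval 0.07 to 0.47, adjusted p = 0.0567). It passed with upper quartile scaling (0.0473), array weights (0.0238), voom (0.0486) and GC correction (0.0289), within a range of adjusted p from 0.0238 to 0.198. The change was smaller with equal totals (0.15, adjusted p = 0.190) and quantile scaling (0.13, adjusted p = 0.162). LTO1, on the other strand and sharing 1399 bases with CCND1, stood at 5.38 and 6.56 FPKM.

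CCND3 (ENSG00000112576, chromosome 6, 41934933 to 42050357), cyclin D3, had 7.36, 7.76 and 9.01 FPKM in DMSO and 7.61, 5.33 and 5.69 FPKM in PD. PD replicate 1 lay among the DMSO samples and the other PD samples below them. The log2 fold change of -0.34 ± 0.14 did not pass (adjusted p = 0.113 in limma). Without PD replicate 1 it was -0.47 and passed (adjusted p = 0.0402), as it did with array weights and after GC correction (0.0177 and 0.0298).

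Summed over the 3 D-type cyclins, the level was 116, 109 and 117 FPKM in DMSO and 156, 150 and 151 FPKM in PD, without overlap. With every sample scaled to the same total these sums ran from 120 to 126 and from 143 to 156 FPKM. CCND2 made up 18.3%, 18.2% and 15.7% of the sum in DMSO and 27.2%, 31.0% and 25.3% in PD. CCND1 went from 75.6% ± 0.98 to 68.1% ± 2.71 of it and CCND3 from 7.06% ± 0.70 to 4.06% ± 0.71 (SD, n = 3 per group), again without overlap. These shares are taken within a sample and do not depend on the scaling between samples. The GC trends of samples can still act on them, and no share here or below was corrected for GC content. No test was run on sums or shares.

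CDK6 (ENSG00000105810, chromosome 7, 92604921 to 92836594) is the kinase partner of the D-type cyclins in this set. Its FPKM was 35.4, 24.8 and 24.8 in DMSO and 17.4, 18.8 and 21.9 in PD. All PD samples were below all DMSO samples, and DMSO replicate 1, the highest DMSO sample for 5 of the 10 genes, stood far above the rest of its group. The log2 fold change was -0.51 ± 0.16 (95% interval -0.88 to -0.14, adjusted p = 0.0491 in limma). Without DMSO replicate 1 it was -0.35 (adjusted p = 0.0664), leaving out either of the other DMSO samples or either of PD replicates 1 and 2 also ended the call (0.0659 to 0.140), as did a pseudocount of 0.1, no filter and no mean-variance trend (0.0506 to 0.124), and over all settings the adjusted p ran from 0.00623 to 0.140. Its longest transcript has a GC content of 39.5%, the lowest of the 10 genes, beside a median of 47.9% over genes tested, and after GC correction the change was -0.45 (adjusted p = 0.00623).

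CDK4, the other kinase that D-type cyclins activate and not one of the 10, stood at 47.6, 50.1 and 51.7 FPKM in DMSO and 63.1, 52.2 and 56.6 FPKM in PD (log2 fold change 0.20, adjusted p = 0.176, not passed; 0.12 without PD replicate 1 and 0.07 and 0.06 with equal totals and quantile scaling). CDK6 made up 42.7%, 33.1% and 32.4% of CDK4 and CDK6 together in DMSO and 21.6%, 26.5% and 27.9% in PD. The sum of both kinases was 78.1 ± 4.30 FPKM in DMSO and 76.7 ± 5.01 FPKM in PD, with overlapping groups. It did not overlap with equal totals, at 83.5 ± 1.72 and 75.3 ± 4.98 FPKM.

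**Figure D2:**
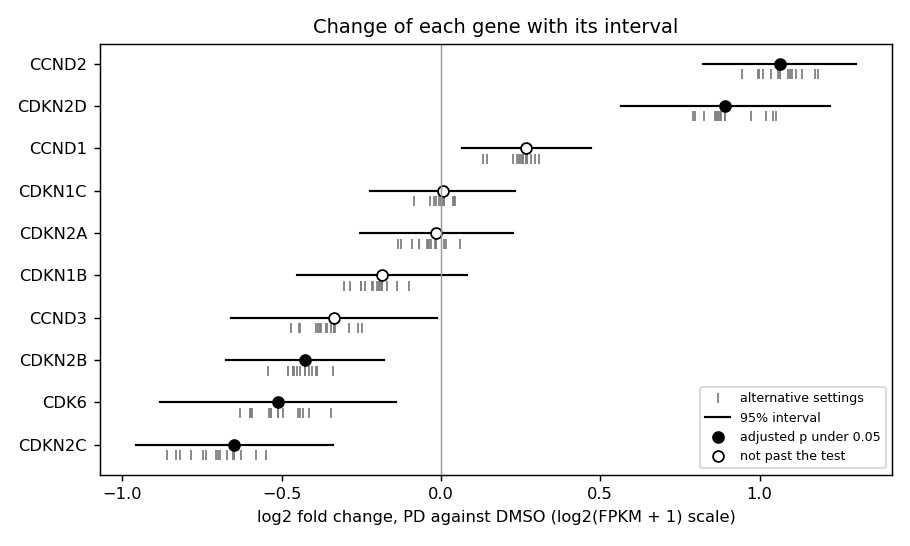
Log2 fold change of PD against DMSO for each gene (x axis, log2(FPKM + 1) scale) with its 95% interval from limma, and the values under the alternative settings as grey ticks below. Filled points, CCND2, CDKN2D, CDKN2B, CDK6 and CDKN2C, had an adjusted p under 0.05, and the ticks of these 5 all stayed on one side of 0.

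Of the 4 INK4 genes 1 rose, 2 fell and 1 did not pass. CDKN2D (ENSG00000129355, chromosome 19, 10566462 to 10569059) encodes p19-INK4d, whose level is known to vary through the cell cycle. Its FPKM was 3.16, 3.55 and 4.67 in DMSO and 8.66, 8.01 and 6.88 in PD, all PD samples being higher. The means differed 2.07-fold. On the log2(FPKM + 1) scale, which understates the change of a gene at this level, the difference was 0.89 ± 0.14 (95% interval 0.56 to 1.22, adjusted p = 0.00458 in limma), and with a pseudocount of 0.1 it was 1.04. CDKN2D passed in all 18 refits.

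CDKN2C (ENSG00000123080, chromosome 1, 50960745 to 50974633) encodes p18-INK4c and is known as a gene that E2F factors activate. It was measured at 3.65, 4.42 and 4.80 FPKM in DMSO and 2.63, 1.92 and 2.57 FPKM in PD. No PD sample reached the lowest DMSO sample. The log2 fold change was -0.65 ± 0.13 (95% interval -0.96 to -0.34, adjusted p = 0.0118 in limma), and all 17 refits in which CDKN2C was tested passed. The log2(FPKM + 1) scale understates this change too. The ratio of the means was 0.554, and with a pseudocount of 0.1 the log2 fold change was -0.83. The stricter filter at a mean of 5 FPKM left it out.

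CDKN2B (ENSG00000147883, chromosome 9, 22002903 to 22009363) encodes p15-INK4b, best known as a gene that TGF-beta induces and MYC represses. Its FPKM was 15.3, 12.4 and 12.7 in DMSO and 9.53, 9.14 and 10.5 in PD, lower in all 3. The log2 fold change was -0.43 ± 0.11 (95% interval -0.68 to -0.18, adjusted p = 0.0241 in limma). The call was lost without DMSO replicate 3 (0.0553), PD replicate 1 (0.0715) or PD replicate 2 (0.0919), and with no filter (0.0553), in a range of 0.00327 to 0.0919. CDKN2B-AS1, the antisense RNA that spans all of CDKN2B, stood at 0.386 and 0.526 FPKM.

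CDKN2A (ENSG00000147889, chromosome 9, 21967753 to 21995301) encodes p16-INK4a and, from another first exon, the p53 activator p14-ARF. GENCODE 29 lists 14 transcripts with 13 start positions for it, and a value per gene cannot separate its products. CDKN2A was detected in every sample, at 7.46, 8.52 and 8.41 FPKM in DMSO and 8.72, 7.13 and 8.31 FPKM in PD. The groups overlapped, and the log2 fold change of -0.01 had a 95% interval of -0.25 to 0.23 (adjusted p = 0.933 in limma), which is 0.838-fold to 1.17-fold on that scale.

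The INK4 genes summed to 29.7 ± 0.85 FPKM in DMSO and 28.0 ± 1.69 FPKM in PD (SD, n = 3 per group), and the groups overlapped. With equal totals they did not, at 31.7 ± 1.32 and 27.5 ± 1.84 FPKM. Within that sum CDKN2D went from 10.7%, 12.3% and 15.3% in DMSO to 29.3%, 30.6% and 24.3% in PD, and CDKN2B from 45.4% ± 5.49 to 34.8% ± 2.46. The share of CDKN2C was 14.4% ± 1.82 and 8.45% ± 0.97 in DMSO and PD, and that of CDKN2A 27.4% ± 2.11 and 28.7% ± 1.31, with overlap for CDKN2A alone. The ratio of CDKN2D to CDKN2C was 0.866, 0.804 and 0.974 in DMSO and 3.29, 4.17 and 2.67 in PD.

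**Figure D3:**
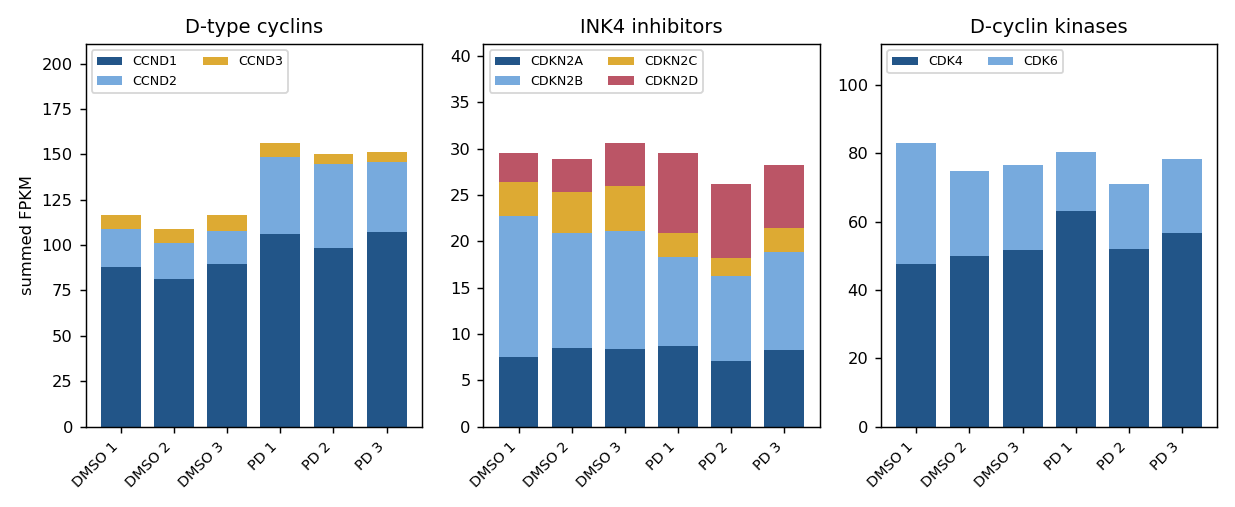
Summed FPKM per sample (y axis) of the D-type cyclins, the INK4 inhibitors and the kinases CDK4 and CDK6, with each gene's part in colour. The cyclin bars were taller in all 3 PD samples, while the INK4 bars had similar heights with a larger CDKN2D part and smaller CDKN2B and CDKN2C parts.

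Neither CIP/KIP member passed the test in limma (unadjusted p = 0.145 for CDKN1B and 0.959 for CDKN1C). CDKN1B (ENSG00000111276, chromosome 12, 12715058 to 12722371) encodes p27, which holds CDK2 inactive in resting cells and is set mainly by protein turnover. It was measured at 23.0, 20.9 and 20.5 FPKM in DMSO and 18.3, 16.6 and 21.7 FPKM in PD. PD replicate 3 lay among the DMSO samples and the other PD samples below them. The log2 fold change was -0.18 ± 0.11 (95% interval -0.45 to 0.08, adjusted p = 0.266 in limma). It was lower and passed with equal totals (-0.30, adjusted p = 0.0493) and with array weights (-0.25, adjusted p = 0.0377), and was -0.10 without PD replicate 2 and -0.285 without PD replicate 3 (adjusted p = 0.607 and 0.0795).

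CDKN1C (ENSG00000129757, chromosome 11, 2883213 to 2885773) encodes p57, an imprinted gene expressed from the maternal copy in many tissues. Its FPKM was 2.92, 2.51 and 2.698 in DMSO and 2.86, 2.55 and 2.75 in PD. The ranges of the groups nearly coincided. The log2 fold change of 0.01 ± 0.10 (95% interval -0.22 to 0.23, adjusted p = 0.975 in limma) was slightly below 0 with equal totals, upper quartile and quantile scaling. CDKN1A, the p53-inducible inhibitor p21 and not one of the 10, went from 73.8, 79.6 and 82.6 FPKM to 112, 94.7 and 113 FPKM, and made up 76.5% ± 2.14 of the 3 CIP/KIP genes in DMSO and 83.2% ± 0.97 in PD.

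Of 21 tested kinase, RB and E2F genes that act with the family at the G1 checkpoint 8 fell and 1 rose, where 12.7% of all genes fell and 14.3% rose, with a median log2 fold change of -0.20. E2F7, a repressing E2F, fell from 4.66 ± 0.65 to 1.61 ± 0.15 FPKM (adjusted p = 0.00101 in limma), and E2F1, an activating one, from 7.94 ± 0.24 to 3.58 ± 0.45 FPKM. CCNA2, cyclin A2 of the S and G2 phases, fell from 27.1 ± 3.13 to 14.1 ± 1.37 FPKM, and RBL1, the RB relative p107, from 7.46 ± 1.48 to 3.81 ± 0.52 FPKM (SD, n = 3 per group). The gene that rose was CDKN1A (log2 fold change 0.43, adjusted p = 0.0212), which was singled out once its value was known. Its call was lost with no filter, with equal totals and on leaving out DMSO replicate 2, DMSO replicate 3, PD replicate 1, or DMSO replicate 1 together with PD replicate 3 (0.051 to 0.073).

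The MuvB complex represses cell cycle genes with RBL1 or RBL2 and activates them with MYBL2 and FOXM1. Subunits of the complex and genes that act with it made up a list with 8 tested genes. Of these 2 fell and the other 6 did not pass, where 12.7% of all genes fell and 27.1% were called in either direction. The subunits tested, LIN9, LIN52, LIN54 and RBBP4, were among those that did not pass (adjusted p 0.305 to 0.971 in limma). MYBL2 fell from 25.3 ± 2.00 to 12.4 ± 1.36 FPKM and FOXM1 from 13.7 ± 2.55 to 6.94 ± 0.55 FPKM (adjusted p = 0.00121 and 0.00503 in limma).

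Among 16 genes for the turnover of p27 and the D-type cyclins 3 rose and 1 fell, a count near the 27.1% called over all genes, with a median of 0.0052. CRYAB, a chaperone also described as a partner of FBXO4 in cyclin D1 turnover, rose from 3.66 ± 0.56 to 11.2 ± 0.45 FPKM. FBXO31, another receptor for cyclin D1 turnover, rose by 0.55 on the log2 scale (adjusted p = 0.0169 in limma), and USP2, a protease that removes ubiquitin from cyclin D1, by 0.54. CUL1, the scaffold of the SCF ubiquitin ligases, changed by -0.31 on that scale (adjusted p = 0.0369). FBXO31 lost its call with equal totals (0.0542) and without PD replicate 1 or 2 (0.0568 and 0.065), and CUL1 with no filter (0.0574) and without any single replicate except PD replicate 3 (0.0703 to 0.131). SKP2, which marks p27 for destruction, stood at -0.38 without passing (adjusted p = 0.108), and was singled out once its value was known.

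Of 20 tested transcription factors known to act on these genes 6 rose and 2 fell, beside 14.3% and 12.7% of all genes, with a median of 0.03. FOS, an AP-1 subunit, rose from 2.30 ± 0.06 to 13.3 ± 0.80 FPKM, ETS1 from 1.13 ± 0.06 to 6.62 ± 0.65 FPKM, JUNB, another AP-1 subunit, from 14.1 ± 0.98 to 41.0 ± 4.74 FPKM and the zinc finger factor KLF6 from 176 ± 13.96 to 477 ± 21.7 FPKM. MYC also rose, from 142 ± 18.3 to 248 ± 13.9 FPKM, and so did JUN, from 49.7 ± 5.14 to 112 ± 11.7 FPKM, both named afterwards. Those that fell were the Wnt factors TCF7L2, from 36.3 ± 0.92 to 13.2 ± 0.54 FPKM, and LEF1, from 4.47 ± 0.11 to 2.91 ± 0.15 FPKM, both singled out once their values were known. FOXO3, known to activate CDKN1B, stood at 13.3 and 13.9 FPKM without passing (adjusted p = 0.614), also named afterwards.

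Polycomb and T-box genes, known to repress the CDKN2A and CDKN2B locus, rose in 1 and fell in 1 of 11 cases, where 27.1% of all genes were called, with a median of -0.23. EZH2, the Polycomb methyltransferase, fell from 16.5 ± 0.32 to 11.4 ± 0.70 FPKM (adjusted p = 0.00558 in limma). CBX8, a subunit that reads its mark, rose by 0.61 on the log2 scale (adjusted p = 0.0357). That call was lost with no filter, with equal totals, without DMSO replicate 1 or 2 and without PD replicate 1 or 2 (0.0701 to 0.104).

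**Figure D4:**
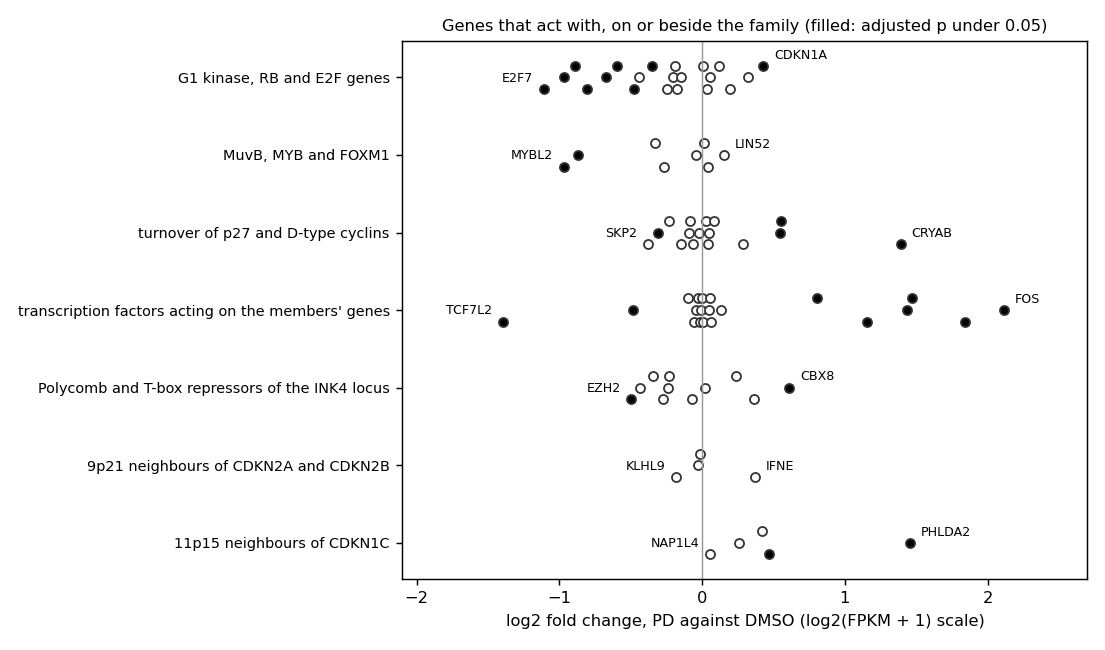
Log2 fold change of PD against DMSO (x axis, log2(FPKM + 1) scale) for the tested genes of 7 lists, 1 point per gene, filled where the adjusted p was under 0.05; the lowest and highest gene of each list is named. G1 kinase, RB and E2F genes had a median of -0.20, and the transcription factors held both the highest value, FOS, and the lowest, TCF7L2.

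Around CDKN2A and CDKN2B on 9p21, 4 of 8 neighbours were tested and 0 passed in limma, where 1, IFNE, had an unadjusted p under 0.05. KLHL9 stood at 20.97 and 18.3 FPKM in DMSO and PD, MTAP at 11.2 and 10.9, FOCAD at 5.17 and 5.13 and IFNE at 2.45 and 3.41 FPKM. IFNE passed with array weights (0.0204) and GC correction (0.0167), and its log2 fold change of 0.37 was 0.235 without DMSO replicate 3, while KLHL9, at -0.18, was -0.075 without DMSO replicate 1, -0.275 without PD replicate 3 and -0.30 with equal totals. DMRTA1, HACD4 and CDKN2B-AS1 stayed under 1 FPKM in every sample, and ELAVL2 was listed at 0. Around CDKN1C on 11p15, 2 of 5 tested neighbours rose, beside 14.3% of all genes. PHLDA2, which like CDKN1C is imprinted and expressed from the maternal copy, had 3.14, 8.04 and 8.36 FPKM in DMSO and 22.3, 17.1 and 16.1 FPKM in PD (log2 fold change 1.46 ± 0.31, adjusted p = 0.014), but did not pass with no filter (0.0567). CD81, a tetraspanin, rose from 10.4 ± 0.08 to 14.9 ± 0.35 FPKM. NAP1L4, TSSC4 and SLC22A18 stood at 0.05, 0.26 and 0.42 on the log2 scale without passing. Without DMSO replicate 1 TSSC4 was at 0.14 and SLC22A18 at 0.245, and SLC22A18 passed with array weights (0.0341), voom (0.0434) and GC correction (0.0318). KCNQ1OT1, KCNQ1, IGF2 and H19 stayed at or under 0.343 FPKM, and ASCL2 was listed at 0. Of 6 antisense and divergent partners 4 were found by name, and CDKN2A-DT reached at most 0.405 FPKM.

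The genes whose levels over the 6 samples were most like those of CCND2 were CFAP53, BICD1 and RBM15, with Pearson r of 0.998, 0.998 and 0.997. For CDKN2D they were TRPV2, WRAP53 and ACVR1B (0.998, 0.997 and 0.996), and for CDKN1B they were C5orf30, ADSS and N6AMT1 (0.994, 0.992 and 0.991). They were chosen as the highest r among protein-coding genes tested, and the 6 samples share 2 group levels, so these values are a description.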

How the data were processed

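Polyadenylated RNA had been made into stranded libraries and read as pairs, per the labels' protocols. The authors deposited FPKM per gene. Aligner, counter and strand setting were not given in the sources used here. GRCm38 and mm10 stand in the submitters' processing notes, but all 58735 gene identifiers and positions are those of GENCODE 29 (GRCh38). Columns were matched to samples by group prefix and title number. Reads were recovered as FPKM times gene length over its smallest step, 100% of values whole within 0.01; voom on these reads called 4272 genes.

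Genes with at least 1 FPKM in at least 3 samples were tested on log2(FPKM + 1) in limma 3.58.1 (R 4.3.3), two-sided, with a mean-variance trend and no covariate. Members and lists were chosen with earlier results of these data known. Named list genes were the up to 4 past the test with the largest change, all neighbours and, for the inhibitor or cyclin of each family with the smallest adjusted p, the 3 genes with the highest r. Genes singled out once their values were known are marked so. Alternatives changed the pseudocount, filter, scaling, weights, trend, block, GC correction, fold criterion and samples. The fit was tested on reads simulated for this comparison over 13348 genes, with 200 genes changed, the same extra variation for all genes and no GC trend. There 99% of 3-fold and 13% of 1.5-fold changes were recovered and 9.68% of calls were false. In the data samples had GC trends and 27.1% of genes were called, so these shares may not hold for them. GC correction took a loess curve (span 0.3) out of each sample's deviation from the mean of all samples. Figures used matplotlib 3.10.9.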

Additional observations from a re-analysis of the deposited data

How the results depend on the processing

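The 5 genes past the test became 3 with no filter, 8 with array weights and 1 with a 2-fold criterion on the log2(FPKM + 1) scale. After GC correction 7 of the 10 genes, and 5454 of all genes, passed. The 5 of the main fit became 3 to 5 when a replicate was left out (3 without DMSO replicate 3 or PD replicate 2). Over all genes, 3678 calls became 2214 at a mean of 5 FPKM, 6301 with array weights and 519 with the 2-fold criterion, and 2003 to 3534 without a replicate (2235, 2230, 2423 and 2003 without DMSO replicate 2, DMSO replicate 3, PD replicate 1 and PD replicate 2) and 4558 with DMSO replicate 1 and PD replicate 3 both left out; the 27 list genes became 9 with that criterion. CCND2 and CDKN2D passed in every refit, and CDKN2C in every one that tested it. Whether replicate numbers pair the samples was not settled. Deviations of same-numbered samples from their group means correlated at -0.39, 0.17 and -0.16, but GC trends of samples also act on these deviations. With the replicate block 3 of the 10 genes, and 1844 of all genes, passed. Under that block CDK6, CDKN2B, CDKN1A, FBXO31, USP2, CUL1 and CBX8 did not pass (adjusted p 0.0532 to 0.120 in limma). Equal totals moved the median of all genes by -0.10. Among the genes named, signs turned in CDKN1C, CDKN2A, MTAP, FOCAD and NAP1L4. CDKN1C was -0.085, -0.015 and -0.0054 with equal totals, upper quartile and quantile scaling, -0.00024 after GC correction and -0.034 to 0.046 without a replicate; CDKN2A was -0.069 to 0.061 without a replicate and -0.091 without DMSO replicate 1 and PD replicate 3. MTAP was 0.018 with array weights, 0.037 after GC correction, 0.031 without DMSO replicate 1 and PD replicate 3 and -0.106 to 0.094 without a replicate. FOCAD was 0.0073 with quantile scaling, 0.010 after GC correction and -0.111 to 0.069 without a replicate. NAP1L4 was -0.065 and -0.032 with equal totals and quantile scaling, and -0.019 to 0.113 without a replicate. The causes were not tested. At this depth counting error reached ±23.7%, for CDKN2D.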
